A study of Mus musculus with 6 samples.

Results

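The genes described here are the constitutive subunits of the mouse proteasome, 34 of the 13972 genes that passed the expression filter. They are the protein-coding genes whose symbol is Psma, Psmb, Psmc or Psmd followed by a number, without the immune subunits Psmb8, Psmb9 and Psmb10, whose deposited value reaches 1 in 3 or more of the 6 libraries. The symbol rule matched 36 genes. Psma8, an alpha subunit known from germ cells, was listed at 0 in every library, and Psmb11, the catalytic subunit of thymic epithelium, reached at most 0.025, so neither passed. The lowest gene that did pass, Psmd9, averaged 15.7, far above the filter. Of the 34 members, 14 encode the core particle (7 Psma and 7 Psmb genes) and 20 belong to the cap (6 Psmc and 14 Psmd genes).

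RNA was sequenced from TM4 cells, a mouse testis line used as a model of Sertoli cells, in 3 control libraries and 3 libraries labelled VC. The series title names vitamin C, whereas the agent recorded for the VC libraries and the design text is valine, so the agent is not settled here and the group is called VC. No dose or time is given in the labels, which also do not say whether the replicates were separate cultures. P-values therefore measure the spread between these 6 libraries, which may be technical, and all 6 come from 1 cell line. The comparison asks how the agent altered gene expression in these cells.

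The proteasome is the cell's main machine for breaking down proteins tagged with ubiquitin. Its core is a barrel in which rings of alpha subunits close the ends and rings of beta subunits enclose the chamber, and 3 of the beta subunits carry the proteolytic sites. The cap sits on the barrel's end: its base holds a ring of ATPases that unfold the substrate and push it in, and its lid removes the ubiquitin chain. Cells adjust many subunit genes together, in mammals through the transcription factor NRF1 (gene Nfe2l1), which is held in check while the proteasome works and released when it is inhibited. Interferon induces 3 immune catalytic subunits that replace the constitutive ones in newly made cores.

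The deposited values resemble TPM (reads over a gene's exons, corrected for exon length and depth) multiplied by a library's own scaling factor. Recovered reads put the depth at 20408425 to 22316857 per library, and each member had 571 to 9065 reads in every library. Control replicate 3 stood apart: pairs of libraries that included it had a chi-square per degree of freedom of 9.57 to 17.2, and the remaining pairs had 2.78 to 7.28. Over all genes limma called 96 at an adjusted p under 0.05, 60 higher and 36 lower in VC, and with libraries scaled to equal totals 182 higher and 35 lower. Under that scaling the median over all genes tested was 0.078 on the log2 scale, in place of 0.012. Of 18 Sertoli markers 9 passed the filter, with sums of 473.0 to 481.4 in control and 509.9 to 527.0 in VC, and Wt1, Fshr, Dmrt1, Shbg and Defb19 were at 0 throughout. The germ cell list summed to 1.49 to 2.31 in control and 2.23 to 2.74 in VC, with Ddx4, Zbtb16, Kit, Stra8 and Tnp1 at 0. The Leydig list summed to 2.34 to 3.38 and 2.73 to 3.53, with Hsd3b1 and Lhcgr at 0. The macrophage list summed to 55.7 to 65.9 and 61.1 to 71.3, with Adgre1 and C1qa at 0, and the endothelial list to 41.5 to 45.6 and 44.9 to 50.1. The myoid list summed to 608.6 to 668.0 in control and 391.7 to 401.6 in VC. Several of these sums rest on few genes. The macrophage sum was mostly Cd14 (mean 57.2), the endothelial sum Ecscr (41.8) and the myoid sum Acta2 (497.3). The Sertoli sum was mostly Ctsl (281.2) and Inhbb (166.2). Shifts in such sums are thus largely shifts of those genes, and their part in the values below was not tested. In such bulk samples fewer cells of a type and less RNA per cell cannot be told apart.

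Core subunit genes spanned a 3.97-fold range of levels, from Psma3, an alpha subunit with a mean value of 67.9, to Psmb4, a structural beta subunit at 269.5. The cap spanned 22.7-fold, from Psmd9, a chaperone of base assembly at 15.7, to Psmc5, one of the ATPases at 355.3. The 3 base chaperones Psmd5, Psmd9 and Psmd10, which leave the complex once it is built, were the 3 lowest members. Without them the other 31 genes lay within 5.37-fold of each other, although their products are built into the complex in fixed proportion. These levels are divided by the total exon length of each gene, and genes with long exon unions came out low: across the 34 members Spearman's rho between that length and the level was -0.697. With recovered reads divided instead by the length of the principal transcript, for the 29 of these 31 genes that have one annotated, the range was 5.26-fold and the highest gene was Psmb6. Longer genes came out lower on that scale too. Spearman's rho with the principal transcript length was -0.641 across the 31 members, chaperones included, that have one. The order of the members thus depends on the length used, while the width of the range was nearly the same on both scales.

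**Figure D1:**
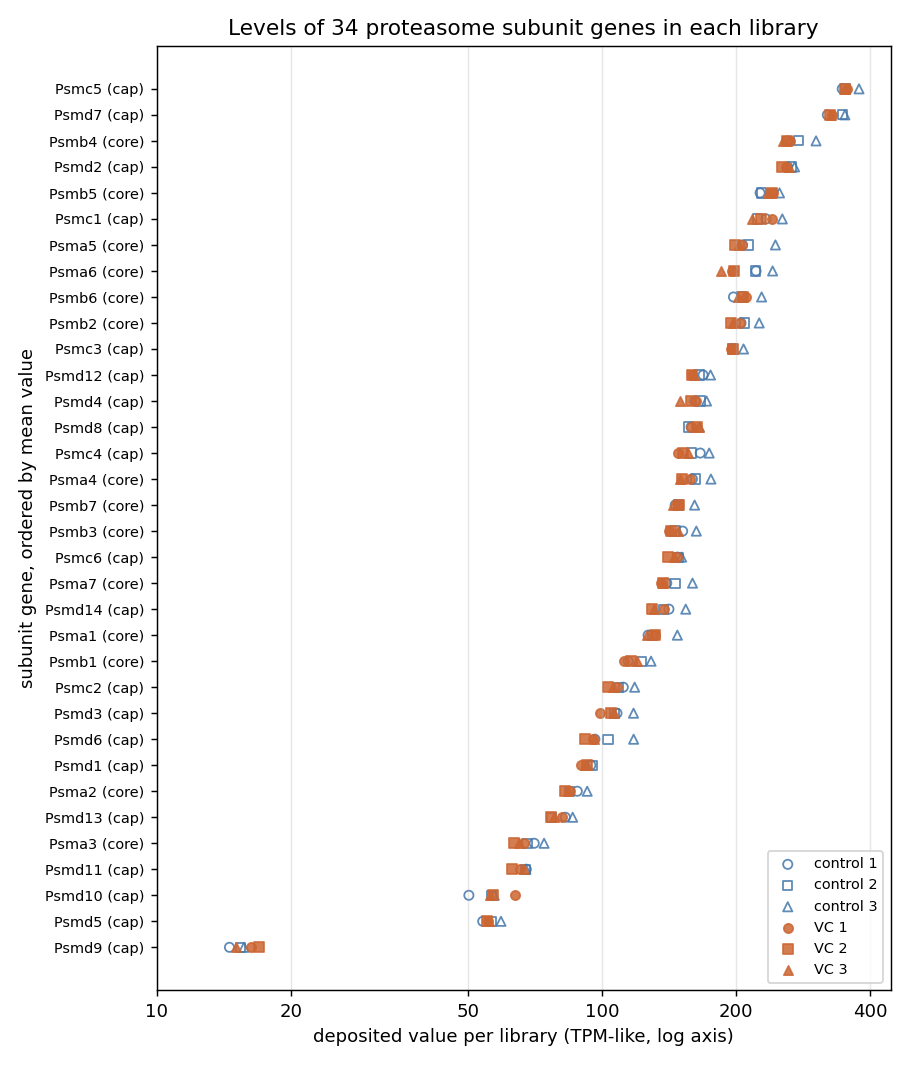
Deposited value (log axis) of each of the 34 subunit genes in each of 6 libraries, ordered by mean; open blue symbols are control, filled orange symbols VC, and the symbol shape gives the replicate. The 3 base assembly chaperones Psmd10, Psmd5 and Psmd9 are at the bottom, and control replicate 3 (open triangles) is often the rightmost point.

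Promoters were examined because subunit genes are known to be adjusted together. RefSeq's promoter table (build GRCm38.p6, whereas the authors aligned to GRCm39) held 30 windows for 28 of the 34 members, and the 250 bases before each start were searched on both strands. The antioxidant response element TGACNNNGC, the type of site NRF1 binds, was found in 5 of 30 windows (16.7%), those of Psmb5, Psmb6, Psmc6, Psmd9 and Psmd12, compared with 11.6% of windows of tested coding genes and 10.2% of all windows. CCAAT, the box bound by NF-Y, was in 11 of 30 (36.7%), against 36.3% and 33.9%. An ETS-type site, CCGGAAG, was in 10 of 30 (33.3%), against 14.4% and 6.91%, and a second form, GGAAGTG, which can overlap the first, in 4 (13.3%), against 11.4% and 8.55%. The GC box GGGCGG was in 17 (56.7%), against 59.1% and 32.7%, the AP-1 type site TGANTCA in 1 (3.33%), against 4.32% and 6.75%, and TATAAA in 3 of 30, against 6.07% and 12.4%. A match is a description of the letters, not evidence of binding.

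Upstream sequences are shown for the members with the lowest log2 fold change of VC against control (Psma6) and the highest (Psmd10), and for 2 catalytic subunits whose promoters hold the antioxidant response element. They lie at chr12:55398575-55398774, plus strand (1 of 2 windows of the gene, the one nearest its principal transcript), chrX:140956729-140956961, minus strand, chr14:54618023-54618245, minus strand, and chr11:70525107-70525356, plus strand, all in GRCm38.p6. Each runs 5′ to 3′ toward the gene and stops before the first annotated transcript start, so the lengths differ. Capitals mark CCGGAAG in Psma6, CCAAT or its reverse complement ATTGG in Psmd10, and TGACNNNGC in Psmb5 and Psmb6.
Psma6: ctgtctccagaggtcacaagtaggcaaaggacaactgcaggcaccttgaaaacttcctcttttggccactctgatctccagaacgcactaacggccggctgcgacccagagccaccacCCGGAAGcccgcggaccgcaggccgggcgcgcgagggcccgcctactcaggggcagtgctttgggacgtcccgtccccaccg
Psmd10: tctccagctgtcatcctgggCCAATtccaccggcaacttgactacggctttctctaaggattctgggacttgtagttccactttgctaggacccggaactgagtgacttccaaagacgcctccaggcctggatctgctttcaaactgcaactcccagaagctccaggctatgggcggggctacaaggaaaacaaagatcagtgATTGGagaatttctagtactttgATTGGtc
Psmb5: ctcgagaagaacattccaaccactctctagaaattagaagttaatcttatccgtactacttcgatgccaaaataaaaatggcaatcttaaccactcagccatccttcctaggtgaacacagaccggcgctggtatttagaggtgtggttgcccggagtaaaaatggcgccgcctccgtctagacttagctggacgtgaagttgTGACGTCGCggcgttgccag
Psmb6: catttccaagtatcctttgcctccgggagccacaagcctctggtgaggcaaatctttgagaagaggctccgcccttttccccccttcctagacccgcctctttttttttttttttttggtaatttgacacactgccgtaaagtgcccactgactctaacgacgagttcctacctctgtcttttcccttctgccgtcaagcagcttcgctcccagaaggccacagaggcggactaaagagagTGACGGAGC
The CCAAT matches of Psma6 lie in its other window, which is not shown. Psmd10 held 3 CCAAT boxes, and Psmb5 and Psmb6 held 1 antioxidant response element each, near the downstream end.

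No subunit gene passed the test between VC and control. Limma called 0 of 34, where it called 0.687% of all tested genes (0.429% higher and 0.258% lower), and 5 of the 34 had an unadjusted p under 0.05, all lower in VC, where 17.2% of all tested genes had one in either direction. In the lower direction alone, 1146 of the 13972 tested genes had one. Fitted with limma-voom on recovered reads, 1 of 34 members passed, Psma6, and 3.98% of all genes in that fit did. The differences were small and mostly to 1 side. As deposited, 30 of 34 members had a log2 fold change below 0, against 46.3% of all tested genes. With equal totals 17 of 34 members did, and the median over all tested genes was 0.078 on that scale. Below that median lay 13 of 14 core and 17 of 20 cap members, the same numbers as against the median as deposited. After quantile normalization 12 core and 11 cap members lay below the median of all tested genes. With tested genes split into 4 equal bins by level, the highest bin held 33 of the 34 members. Of the 3493 genes in that bin, 681 were lower in VC with a limma unadjusted p under 0.05, and 2244 were below 0 as deposited. So were 71 of 77 cytosolic ribosomal protein genes and 12 of 13 mitochondrially encoded protein genes. For 30 of the 34 members the 95% interval lay within a 1.2-fold change in both directions, and the other 4 were Psma5, Psma6, Psmd6 and Psmd10.

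In the alpha ring, whose subunits gate entry to the core, all 7 genes had log2 fold changes below 0, from -0.24 to -0.052, and 6 of 7 with equal totals or without control replicate 3. The median was -0.12, against 0.012 over all tested genes, and it was -0.066 without control replicate 3 and -0.047 with equal totals. Over all tested genes the medians under these 2 settings were 0.0075 and 0.078. Psma6 (ENSMUSG00000021024), the gene with the ETS-type site in the stretch shown, had the lowest log2 fold change of any member. It was at 222, 221 and 241 in the control libraries and at 195, 198 and 185 in VC. All 3 VC libraries were below all 3 controls. The means were 228.0 ± 11.6 and 192.8 ± 6.65 (SD, n = 3 per group), with a log2 fold change of -0.24 (SE 0.047, 95% interval -0.35 to -0.13), which missed limma's threshold at an adjusted p of 0.080. Without control replicate 3 it was still -0.20. For Psma3, Psma4, Psma5 and Psma7 too the VC values lay below the controls, though for Psma5 only just, at 206.455 in VC replicate 1 and 206.547 in control replicate 1. Psma1 and Psma2 overlapped between the groups.

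The 4 structural beta subunits Psmb1, Psmb2, Psmb3 and Psmb4 had log2 fold changes between -0.10 and -0.072, and all 4 were below 0 with equal totals too, with a median of -0.023. Psmb4, the highest core gene, was at 261, 276 and 302 in control and 264, 260 and 255 in VC. The groups overlapped, and its log2 fold change was -0.10 (95% interval -0.24 to 0.027, limma adjusted p 0.386), or -0.047 without control replicate 3 and -0.032 with equal totals. Psmb2 was the only gene of the 4 with all VC values below the controls. Psma3, the lowest core gene, was at 70.4, 67.8 and 74.1 in control and 66.8, 63.4 and 65.0 in VC (log2 fold change -0.12, 95% interval -0.22 to -0.014, limma adjusted p 0.244).

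The 3 catalytic subunits had the core's smallest log2 fold changes in size as deposited, and their groups overlapped. This depended on the scaling: with equal totals the VC values of Psmb5 were all above the controls. Psmb5, which carries the chymotrypsin-like site and has an antioxidant response element upstream, was at 226, 228 and 250.1 in control and 242, 240.2 and 236 in VC. Control replicate 3 was above every VC library and the other two controls were below all of them. Its log2 fold change of 0.029 (95% interval -0.080 to 0.14, limma adjusted p 0.786) was the highest in the core. Psmb6, with the caspase-like site, was at 197, 205 and 228 in control and 211, 207 and 202 in VC, a log2 fold change of -0.023 (95% interval -0.16 to 0.11). Psmb7, with the trypsin-like site, was at 146, 149 and 161 in control and 148, 149 and 144 in VC, a log2 fold change of -0.046 (95% interval -0.15 to 0.060), and its exons overlap those of Nek6 on the opposite strand over 11.8% of their bases. With equal totals all 3 were above 0, Psmb5 at 0.10, Psmb6 at 0.049 and Psmb7 at 0.026. The median of all tested genes was then 0.078, and 2 of the 3 were below it. Without control replicate 3 Psmb5 was at 0.075, Psmb6 at 0.037 and Psmb7 at -0.0025. The limma adjusted p was 0.867 for Psmb6 and 0.638 for Psmb7. Whether the alpha ring and the catalytic subunits differ from each other was not tested.

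In the cap, all 6 ATPase genes of the base had log2 fold changes below 0, from -0.13 to -0.025, but only 2 of 6 did with equal totals or after quantile normalization, and 4 of 6 without control replicate 3. With equal totals the median of all tested genes was 0.078, and all 6 were below that median. After quantile normalization 2 of 6 were below the median of all tested genes, and without control replicate 3 it was 5 of 6. Psmc5, the highest member of all, was at 346, 352 and 377 in control and 354, 351 and 351 in VC. Only control replicate 3 was outside the VC range by more than a few percent. Its log2 fold change of -0.025 (95% interval -0.12 to 0.070, limma adjusted p 0.785) became 0.047 with equal totals and 0.012 without control replicate 3. Psmc2, Psmc4 and Psmc6 had all VC values below the controls. The scaffold subunits Psmd1 and Psmd2 and the ubiquitin receptor Psmd4 had log2 fold changes of -0.085 to -0.043, and with equal totals 1 of the 3 was below 0. All 3 were below the median of all tested genes on that scale.

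The 8 lid genes had log2 fold changes from -0.16 to 0.020, with 7 below 0, and 4 of 8 with equal totals. On that scale 7 of 8 were below the median of all tested genes, 0.078. Psmd6, a structural lid subunit, was the lowest cap member. It was at 96.3, 103 and 118 in control and 95.6, 91.7 and 95.9 in VC. The VC values were all lower, but control replicate 1 was within 1 unit of 2 of them while control replicate 3 was far above. The log2 fold change was -0.16 (SE 0.072, 95% interval -0.33 to 0.014, limma adjusted p 0.322). It was -0.077 without control replicate 3 and -0.22 without control replicate 1. Psmd3, Psmd11, Psmd12 and Psmd14, the last of which is the deubiquitinase of the lid, also had all VC values below the controls. Psmd8 was the lid gene above 0.

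Of the 3 base chaperones, Psmd9 and Psmd10 had values above 0 and Psmd5 one below. Psmd10, which encodes gankyrin, was at 50.2, 56.5 and 57.2 in control and 63.7, 57.0 and 56.0 in VC, the highest log2 fold change of any member at 0.11 (95% interval -0.060 to 0.27, limma adjusted p 0.481). VC replicate 1 was high and control replicate 1 low, and the value was 0.049 without VC replicate 1 and 0.047 without control replicate 1. Psmd9 was at 14.6, 15.4 and 15.7 in control and 16.3, 16.9 and 15.1 in VC (log2 fold change 0.075, 95% interval -0.068 to 0.22, limma adjusted p 0.566). Psmd9 shares 25.5% of its exon bases with Gm26745 on the opposite strand, and the labels do not say whether counting used strand. All 3 chaperones overlapped between the groups.

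**Figure D2:**
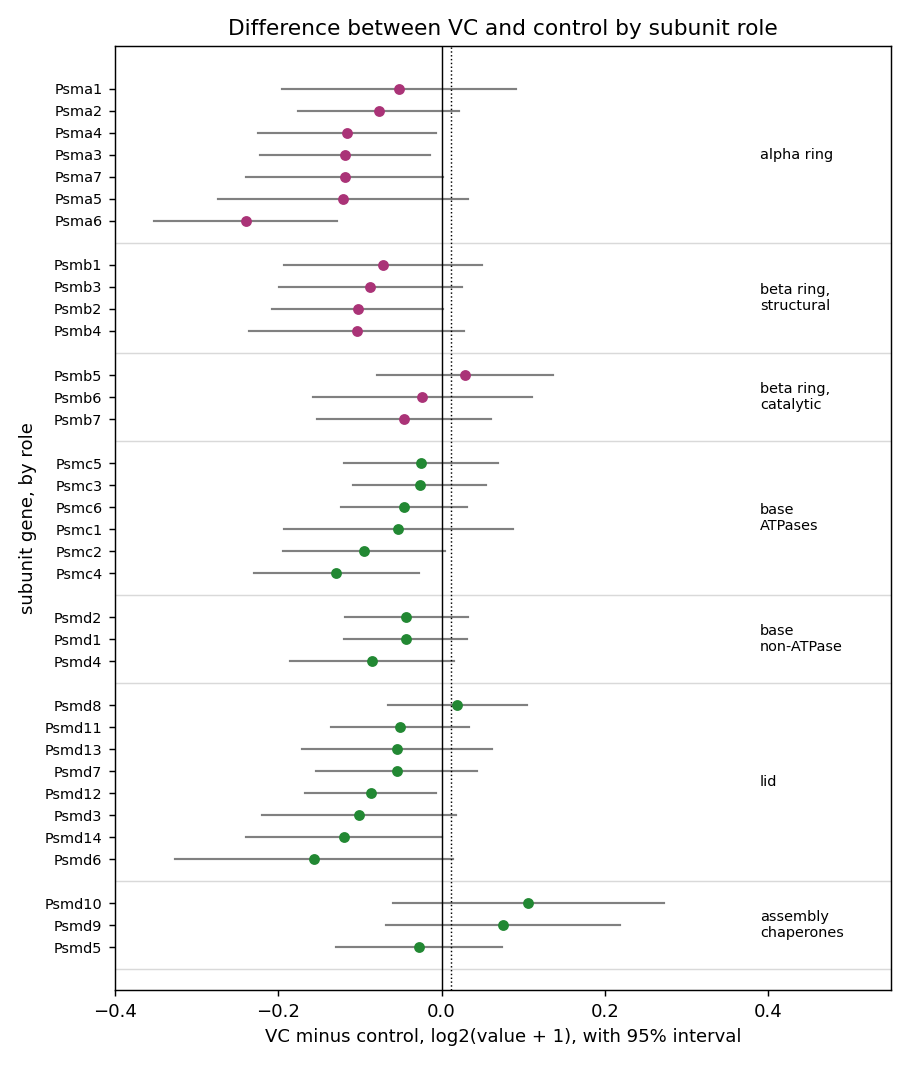
Log2 fold change of each subunit gene in VC relative to control, with limma's 95% interval, grouped by role; purple points are core and green points cap, the solid line marks 0 and the dotted line the median of all tested genes, 0.012. Of the 34 points 30 lie left of 0, and the 4 to the right of it are Psmb5, Psmd8, Psmd9 and Psmd10.

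Across the members, 15 of 34 had all 3 VC values below all 3 control values, 6 in the core and 9 in the cap, and 0 had them all above. Over all tested genes 11.6% had them all below and 13.9% all above, together 25.6%. In the highest of the 4 level bins 929 of 3493 genes had them all below and 395 all above. Of the 77 cytosolic ribosomal protein genes 36 had them all below, and of the 13 mitochondrially encoded protein genes 9 did. Neither of these last groups had a gene with them all above. The side of the members depended on the scaling. With libraries scaled to equal totals, 1 member, Psma6, had all VC values below the controls and 7 had them all above (Psmb5, Psmc3, Psmc5, Psmd5, Psmd8, Psmd9 and Psmd10), while over all tested genes the shares were 4.6% and 25.8%. On that scale the core and cap medians were -0.023 and 0.020, compared with -0.095 and -0.052 as deposited. Set against the median of all tested genes, which the scaling also moved, the core was lower by 0.107 as deposited and by 0.101 with equal totals, and the cap by 0.064 and by 0.058. After quantile normalization these gaps were 0.041 and 0.014.

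Control replicate 3 was the highest of the 6 libraries for all 14 core genes and for 16 of 20 cap genes. Over all tested genes this held for 23.3%, and in the highest of the 4 level bins for 1588 of 3493 genes. It also held for 71 of 77 cytosolic ribosomal protein genes and for 6 of 13 mitochondrially encoded protein genes. Control replicate 3 was the highest of the 3 controls for 32 of 34 members and for 37.3% of all tested genes. With equal totals it was the highest for 17 of 34 members and for 10.1% of all tested genes. The median core gene stood 0.087 above its control mean in that library on the log2 scale and 0.056 and 0.037 below it in control replicates 1 and 2. In VC it stood 0.076, 0.10 and 0.10 below. The cap had the same pattern with smaller values, 0.060 in control replicate 3 and -0.027 in both other controls, against -0.038, -0.069 and -0.047 in VC. Leaving out control replicate 3 brought the core median to -0.045 and the cap median to -0.034, and 25 of 34 members were then below 0. The median over all tested genes was then 0.0075, and 11 of 14 core and 16 of 20 cap genes lay below it. Without that library 15 members had all VC values below the other two controls, a count that could not fall below the 15 with all controls, and 2 had them above. The shares over all tested genes were 17.3% and 19.9%.

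**Figure D3:**
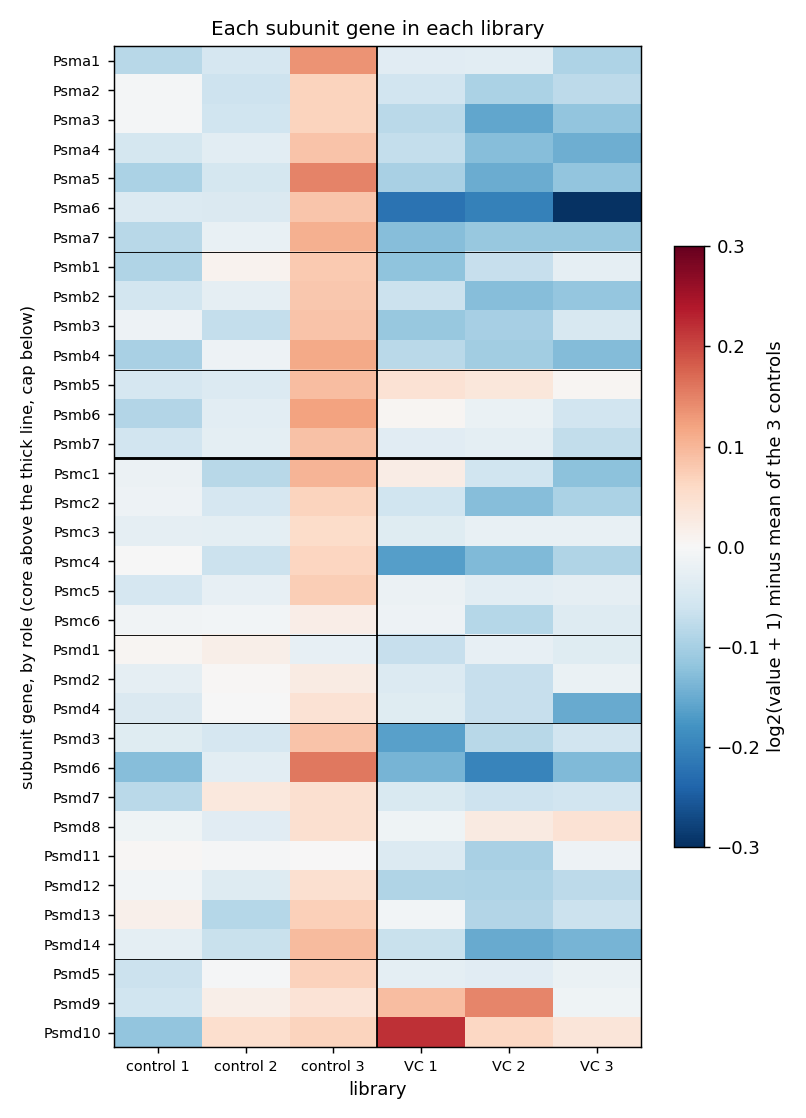
Heat map of the 34 subunit genes (rows, by role) in 6 libraries (columns); colour is log2(value + 1) minus the gene's mean over the 3 controls, red above and blue below. The column of control replicate 3 is red for nearly all genes, and Psma6 is the darkest blue in VC.

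Summed over genes, the core amounted to 2313, 2358 and 2594 in control and to 2299, 2271 and 2250 in VC. The cap summed to 2979, 3002 and 3182 in control and to 2962, 2914 and 2931 in VC. Both sums were lower in every VC library than in any control. As a share of each library's own total the order was lost: with each library's total set to 1000000, the core stood at 2287, 2341 and 2451 in control and at 2337, 2328 and 2329 in VC, and the cap at 2945, 2980 and 3007 against 3011, 2986 and 3034. The ratio of core to cap was 0.777, 0.786 and 0.815 in control and 0.776, 0.780 and 0.768 in VC. Control replicate 1 lay between the VC values and control replicate 3 was the highest. This ratio does not depend on the scaling of a library.

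Gene groups outside the proteasome had shifts of the same order. The 77 cytosolic ribosomal protein genes, which can track RNA quality, had a median log2 fold change of -0.11 and stood 0.12 above their control mean in control replicate 3. The 13 mitochondrially encoded protein genes had a median of -0.12. With tested genes split into 4 equal bins by level, the highest bin held 33 of the 34 members and had a median of -0.037. Split likewise by exon length, the bin of the shortest genes had a median of -0.038 and that of the longest 0.054. The part of RNA quality, level or length in the members' values was not tested. The members varied little: their median residual SD in the fit was 0.058 on the log2 scale, 0.092 over all tested genes and 0.059 in the highest level bin.

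**Figure D4:**
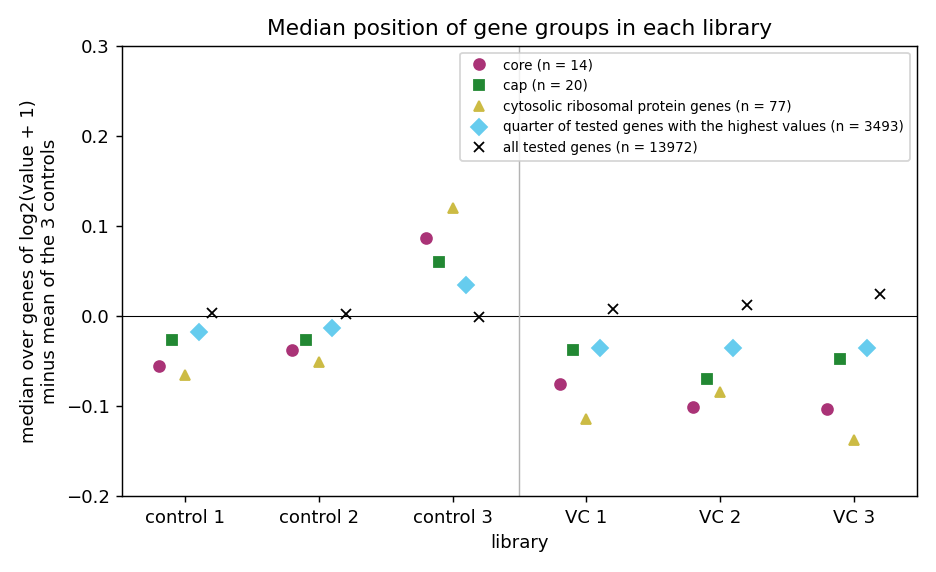
Median over genes of log2(value + 1) minus each gene's control mean, in each of 6 libraries, for the core, the cap, cytosolic ribosomal protein genes, the highest of 4 level bins and all tested genes. Core, cap and ribosomal protein genes are highest in control replicate 3, at 0.087, 0.060 and 0.12, and below 0 in the other libraries.

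Among genes that work with these subunits but fall outside the symbol rule, limma called 0 of 41 tested, and 9 had an unadjusted p under 0.05, 5 of them lower and 4 higher, where 17.2% of all tested genes had one. Limma-voom on recovered reads called 3, Zfand2a higher and Ubqln1 and Vcp lower, and 3.98% of all genes in its fit. The 2 cap subunits with other names, the ubiquitin receptor Adrm1 and the small lid protein Sem1, had log2 fold changes of -0.087 (95% interval -0.21 to 0.039, limma adjusted p 0.449) and -0.12 (95% interval -0.26 to 0.016, limma adjusted p 0.339). Adrm1 was at 73.7, 74.8 and 82.8 in control and 70.0, 74.7 and 72.6 in VC. Sem1 was at 60.3, 58.2 and 66.8 in control and 58.7, 56.1 and 54.8 in VC. Both overlapped between the groups and were highest in control replicate 3, as most members were, and without that library the values were -0.036 and -0.066.

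All 3 immune catalytic subunits were lower than their constitutive counterparts, Psmb8 and Psmb9 far more so than Psmb10. Psmb10, the trypsin-like immune subunit, was at 32.9, 38.7 and 36.0 in control and 35.2, 38.4 and 38.9 in VC, or 23.7% ± 2.08 and 25.5% ± 1.65 (SD, n = 3 per group) of Psmb7. Psmb8 was at 1.76, 1.67 and 2.32 in control and 1.87, 1.84 and 1.54 in VC, which was 0.813% ± 0.1 and 0.732% ± 0.067 of Psmb5. Psmb9 stayed below the filter at 0.344 to 0.799, or 0.244% ± 0.070 of Psmb6 in control and 0.262% ± 0.103 in VC. The groups overlapped for all 3. The log2 fold changes were 0.063 for Psmb10 (95% interval -0.10 to 0.23, limma adjusted p 0.680) and -0.078 for Psmb8 (95% interval -0.42 to 0.27, limma adjusted p 0.818), the latter on 42 to 65 reads per library.

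**Figure D5:**
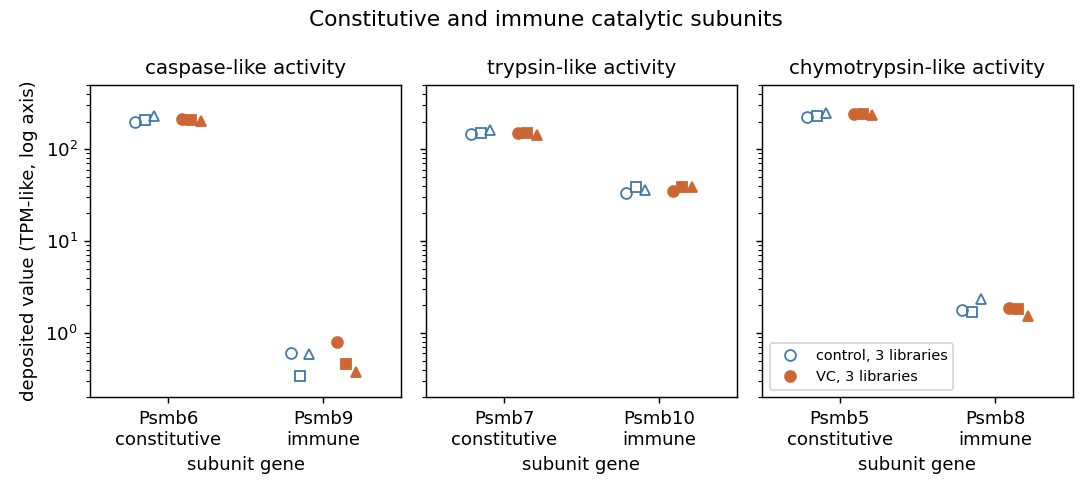
Deposited value (log axis) of the 3 constitutive catalytic subunit genes and their immune counterparts, by proteolytic activity; open blue symbols are 3 control and filled orange symbols 3 VC libraries. Psmb10 lies at 32.9 to 38.9, whereas Psmb8 lies at 1.54 to 2.32 and Psmb9 under 0.8.

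The activators of the core did not pass the test. Psme1, a subunit of the interferon-inducible ring that can replace the cap, was at 36.5, 40.8 and 52.1 in control and 43.9, 46.1 and 48.1 in VC, a log2 fold change of 0.10 (95% interval -0.18 to 0.39, limma adjusted p 0.696). Its partner Psme2 was at 37.9, 47.3 and 47.3 in control and 39.6, 45.5 and 27.2 in VC, a log2 fold change of -0.26 (95% interval -0.69 to 0.18, limma adjusted p 0.519), with VC replicate 3 low. The value was -0.048 without that library and -0.41 without VC replicate 2. Psme2 is an uncertain count, since Psme2b is a near copy of it. Psme4, a large single-chain activator abundant in testis, was at 90.6, 88.6 and 79.6 in control and 89.6, 91.3 and 94.2 in VC, a log2 fold change of 0.089 (95% interval -0.040 to 0.22, limma adjusted p 0.449). Here control replicate 3 was the lowest library, and without it the value was 0.033. Of the 5 genes of core assembly, Pomp, the maturation factor of the core, was at 58.3, 57.8 and 67.0 in control and 58.4, 59.8 and 59.2 in VC, a log2 fold change of -0.041 (95% interval -0.18 to 0.10, limma adjusted p 0.763).

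Nfe2l1, which encodes NRF1, was at 124, 126 and 117 in control and 130.4, 132 and 134 in VC. All VC values were above the controls, but the log2 fold change of 0.11 (SE 0.038, 95% interval 0.017 to 0.20) had a limma adjusted p of 0.228. The gene nearest to the threshold in these lists was Zfand2a, an arsenite-inducible zinc finger protein that binds the proteasome, chosen after its value was seen. It was at 43.5, 49.4 and 45.9 in control and 54.8, 61.3 and 62.6 in VC, with all VC values higher and a log2 fold change of 0.36 (SE 0.067, 95% interval 0.20 to 0.52, limma adjusted p 0.073). It passed with equal totals (limma adjusted p 0.046) and with the stricter filter of 5 or more (limma adjusted p 0.049). Ubqln1, a shuttle that brings ubiquitinated proteins to the cap, also chosen after its value was seen, was at 125, 118 and 114 in control and 104, 105 and 105 in VC (log2 fold change -0.18, 95% interval -0.28 to -0.087, limma adjusted p 0.098). Vcp, the ATPase that extracts ubiquitinated proteins, likewise chosen afterwards, was at 178, 179 and 181 in control and 161, 148 and 165 in VC (log2 fold change -0.18, 95% interval -0.29 to -0.069, limma adjusted p 0.130).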

How the data were processed

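RNA of 6 TM4 libraries was extracted with Trizol and sequenced from TruSeq libraries, per the labels' protocols. Alignment used HISAT2 and GRCm39, per the submitters' processing notes. How reads were counted, and on which annotation, is not given in the sources used here. Deposited by the authors was a signal that behaves as TPM times 1 factor per library, with column totals of 966031 to 1058206. Times exon length and divided by a step fitted for each library, 98.74% to 98.89% of the values checked were whole reads within 0.1 read. Checked were values above 0 with a known length, a limited read number and a small rounding error. Symbols, lengths and overlaps came from GENCODE M21 (GRCm38), for 52133 of 55414 rows, and 135 of 136 list symbols matched.

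Genes at 1 or more in 3 of 6 libraries were compared as log2(value + 1), VC minus control, with limma 3.58.1 (R 4.3.3; empirical Bayes with trend, two-sided, Benjamini-Hochberg, threshold 0.05), tested on simulated data. Fold changes understate those of low genes. Tables used Python 3.11.15, pandas 2.3.3 and numpy 2.4.6. The 16 alternatives covered pseudocounts, filters, scalings, a replicate block, no trend, each library left out and limma-voom on recovered reads. Genes named with fold changes are members past the threshold, the catalytic subunits, the extremes of change and level in core and cap, other pathway genes past the threshold, and Psmb8, Psmb9, Psmb10, Adrm1, Sem1, Pomp, Psme1, Psme2, Psme4 and Nfe2l1. Outside this rule, Zfand2a, Ubqln1 and Vcp were added after their values were seen. Members and lists were chosen with earlier results of these data known. The result of 1 gene is not reported here.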

Additional observations from a re-analysis of the deposited data

How the results depend on the processing

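Of 367 values of 23 single genes under 16 alternatives, 349 kept their direction and side of the threshold, 12 reversed and 6 newly passed. With equal totals the log2 fold change reversed for Psmb6 (0.049), Psmb7 (0.026), Psmc5 (0.047) and Pomp (0.030), after quantile normalization for Psmb6 (0.043), Psmb7 (0.0006) and Psmc5 (0.044), without control replicate 3 for Psmb6 (0.037), Psmc5 (0.012), Psmb8 (0.018) and Pomp (0.026), and without control replicate 1 for Psme1 (-0.0045). Over the fits that left out 1 library, these genes ranged from -0.068 (Psmb6), -0.050 (Psmc5), -0.14 (Psmb8) and -0.079 (Pomp) up to the values given, and Psme1 up to 0.25. The values reversed with equal totals all lay below the median of all tested genes on that scale, 0.078. Those reversed after quantile normalization (median 0.0007) or without control replicate 3 (median 0.0075) lay above it, except Psmb7 after quantile normalization. The core median was -0.023 with equal totals, and the cap median was 0.020 with equal totals and -0.013 after quantile normalization. Limma-voom called 1 core member and 3 pathway genes, and the filter of 5 or more and equal totals each called 1 pathway gene. The cause was not tested.

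The 96 calls over all genes became 30 with no filter, 183 with the filter of 5 or more, 217 with equal totals, 6 with no trend and 548 with limma-voom. Leaving out 1 library gave 0 to 82 calls, the 82 without control replicate 3; of the others, each left 0 or 1. With the replicate block limma called 0 genes. The numbers do not pair the samples: same-numbered libraries' deviations correlated at -0.019, -0.011 and 0.005. Depth limits Psmb8 and Psmb9, at 42 to 65 and 10 to 24 reads per library.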
